A study of Mus musculus with 15 samples.

Results

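The genes described here were 6 octamer-binding POU transcription factor genes of the mouse: *Pou5f1*, *Pou2f1*, *Pou2f2*, *Pou2f3*, *Pou3f1* and *Pou6f1*. They were chosen by name, as the target of the depletion and 5 of its paralogues, from 48709 counted genes, and 8 further POU genes are described beside them. RNA sequencing read counts were available from 15 libraries of mouse ESCs (embryonic stem cells), which the paper maintained in naive (2i/LIF) medium. CreER ESCs (genotype Oct4Fl/-; CAG CreER, strain Mixed 129SV C57BL/6) carry a floxed *Oct4* allele opposite a null one, and 4OHT (500 nM) activates a Cre recombinase that is made from the broadly active CAG promoter. They were sequenced untreated (0 h) and after 12, 18, 24 and 36 h, with 2 libraries at each time. The paper's qRT-PCR and protein courses of *Oct4* loss in such cells began with 4OHT and a change to serum and LIF medium. For the RNA sequencing courses themselves the paper names no medium. If such a change was made, it cannot be told apart from 4OHT. O4AID ESCs (strain 129SV) were made from ZHBTc4 ESCs, are Oct4-/- at the endogenous gene and carry 3 transgenes, TetOFF Oct4, CAG Oct4AID and CAG Tir1. They keep their wild-type TetOFF transgene silent in 1 µg/ml doxycycline at every time, 0 h included. They rely on a CAG-driven *Oct4* fused to an auxin-inducible degron, and IAA (500 µM) sends that fusion protein for destruction through Tir1. O4AID had 1 library at each of 0, 1.5, 6, 10 and 24 h. The question was whether POU paralogues of OCT4 change as OCT4 is lost by either route.

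POU proteins bind DNA through a POU-specific domain joined by a linker to a POU homeodomain, and many of them read the octamer ATGCAAAT or a part of it. OCT4, the product of *Pou5f1*, maintains pluripotency and pairs with SOX2 on composite Oct-Sox elements. Its paralogues serve other tissues: OCT1 (*Pou2f1*) is made in nearly all cells, whereas OCT2 (*Pou2f2*), *Pou2f3*, OCT6 (*Pou3f1*) and BRN5 (*Pou6f1*) are known from B cells, tuft cells, the epiblast and Schwann lineage, and the nervous system in turn.

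The stretch that codes for the DNA-contacting helix of the homeodomain is shown for all 6 members, because it is a part by which they read DNA. The POU-specific domain was not compared. Each line runs 5′ to 3′ on the coding strand over 30 bases, from the GENCODE transcripts of the GRCm38 build, and capitals mark the bases that differ from *Pou5f1*:
Pou5f1: cgagtatggttctgtaaccggcgccagaag
Pou2f1: cgTgtTtggttTtgtaaccgCcgccagaag
Pou2f2: cgCgtCtggttctgCaaccggcgccagaag
Pou2f3: AgagtCtggttctgCaaTcgAcgccaAaag
Pou3f1: cgTgtCtggttctgCaaccggcgGcagaag
Pou6f1: AgGgtCtggttctgtaaTcgAcgccagaCA

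The paralogues differed from *Pou5f1* at 3 to 7 of these 30 bases, with 3 in *Pou2f2*, 4 in *Pou2f1* and in *Pou3f1*, 6 in *Pou2f3* and 7 in *Pou6f1*. The base changes left all 10 codons with the same meaning in *Pou2f1*, *Pou2f2*, *Pou2f3* and *Pou3f1*. *Pou6f1* differed at 1 of the 10 residues. Among the further POU genes, the same stretch was found in *Pou1f1*, *Pou3f2*, *Pou3f3* and *Pou3f4*, with 5 to 9 bases and 0 or 1 residue different from *Pou5f1*.

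All positions are on GRCm38/mm10 as the count files give them. *Pou5f1* (ENSMUSG00000024406) lies at chr17:35506018-35510772 on the plus strand, *Pou2f1* (ENSMUSG00000026565) at chr1:165865154-166002678 on the minus strand and *Pou2f2* (ENSMUSG00000008496) at chr7:25087344-25179726 on the minus strand. *Pou2f3* (ENSMUSG00000032015) lies at chr9:43123939-43210369 on the minus strand and *Pou6f1* (ENSMUSG00000009739) at chr15:100575318-100599984 on the minus strand. *Pou3f1* (ENSMUSG00000090125) is a gene of 1 exon at chr4:124656807-124660655 on the plus strand. The 6 members stand on 6 chromosomes.

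The counted total was 21.7 to 30.8 M (mega) reads per CreER library and 40.5 to 48.7 M per O4AID library. Levels are given as CPM (counts per mega-count) with TMM factors over all 15 libraries, and levels of different genes are set side by side only per kb of the deposited exon length. In CreER a gene was called where edgeR's quasi-likelihood test, fitted over all 18969 genes tested, gave a Benjamini-Hochberg adjusted p under 0.05, and all 6 members passed its filter on low counts. Each O4AID time has a single library, so its log2 changes, taken on CPM plus 1, carry 95% intervals of counting error only and no p-value, and were set against a 2-fold limit. All times of a line share its 0 h libraries. Replicates are named in the labels without a statement that they came from separate cultures, so the p-values measure the spread between these libraries, and in bulk RNA fewer expressing cells and less RNA per cell cannot be told apart.

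The first comparison was of the untreated lines, which differed in the paralogues before any OCT4 was removed. *Pou3f1*, *Pou2f2* and *Pou6f1* were higher in CreER, and *Pou5f1*, *Pou2f1* and *Pou2f3* were higher in O4AID. Of the 6 members, 3 stood past 2-fold (*Pou5f1*, *Pou2f3* and *Pou3f1*), where 19.2% of the 31169 genes with a count did so. With 1 O4AID library this is a description, and line, strain, transgenes, sequencing set and any difference in medium cannot be told apart.

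*Pou3f1* had 612 and 658 counts in the untreated CreER libraries and 30 in the O4AID library, or 22.8 ± 1.54 CPM (SD, n = 2) and 0.683 CPM. This was a 33.4-fold higher level in CreER, and no O4AID library of any time reached a CreER value. *Pou2f3* had the opposite order, with 25 and 21 counts in CreER (0.835 ± 0.20 CPM) and 1037 in O4AID (23.6 CPM), a level 28.3-fold higher in O4AID. The lines therefore stood at opposite ends for these 2 paralogues, and the libraries of a line did not overlap with those of the other.

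*Pou2f2* was low in both lines, at 26 and 38 counts in CreER and 4 in O4AID, a 12.5-fold higher CPM in CreER that stayed inside the 2-fold limit once 1 CPM was added (log2 difference -0.97). *Pou6f1* was 1.55-fold higher in CreER (5.56 ± 0.456 CPM against 3.58). *Pou2f1* was 1.52-fold higher in O4AID (160.2 CPM against 105 ± 4.03). *Pou5f1* was 2.40-fold higher in O4AID (765.5 CPM against 319 ± 3.15), and its O4AID count holds the reads of both transgenes, which the gene count does not separate. The plot of POU genes in the untreated libraries places these gaps beside those of 8 POU genes that are not members.

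**Figure D1:**
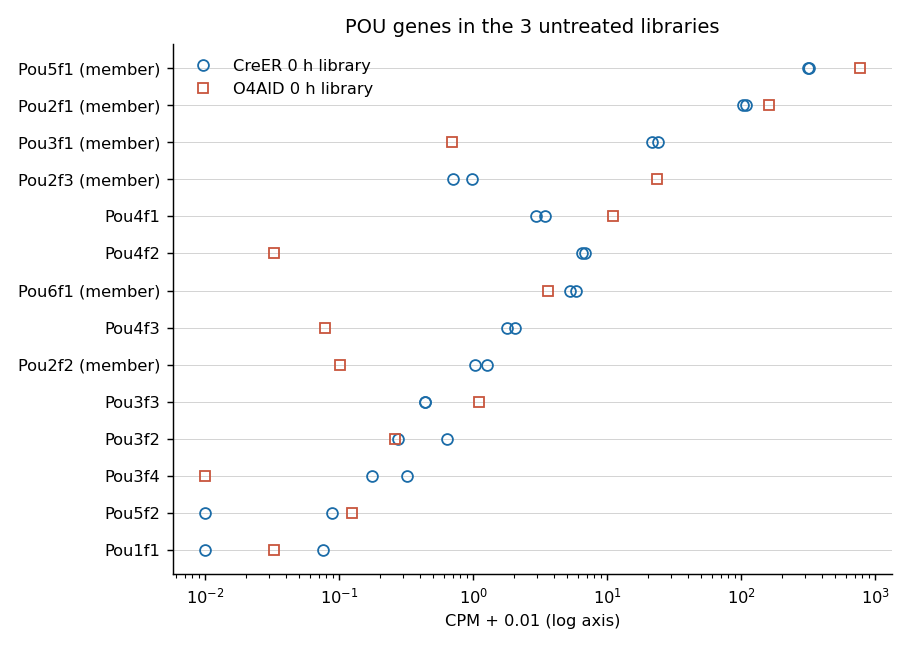
Level of 14 POU genes in the 3 untreated libraries, as CPM plus 0.01 on a log axis, with 1 point for each library (circles CreER, squares O4AID). *Pou3f1* and *Pou2f3* stand at opposite ends for the 2 lines, 33.4-fold higher in CreER and 28.3-fold higher in O4AID, whereas *Pou2f1* differed by 1.52-fold.

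Per kb of exon the order at 0 h in both CreER libraries was *Pou5f1*, *Pou2f1*, *Pou3f1*, *Pou6f1*, *Pou2f3* and *Pou2f2*. The CreER means were 142 ± 1.40, 6.35 ± 0.243, 5.93 ± 0.399, 0.806 ± 0.0661, 0.308 ± 0.0738 and 0.138 ± 0.0205 CPM per kb (SD, n = 2). *Pou2f1* (6.52 and 6.18) and *Pou3f1* (6.21 and 5.64) overlapped, and their order was the other way round in the 18 h and 24 h libraries, so these neighbours were not separated beyond their spread. In O4AID at 0 h the order was *Pou5f1* (340.5 CPM per kb), *Pou2f1* (9.66), *Pou2f3* (8.71), *Pou6f1* (0.519), *Pou3f1* (0.178) and *Pou2f2* (0.0111). The deposited length of *Pou2f1* is the sum of all its annotated exons, 16597 bases against 2248 for *Pou5f1*, so its level per kb would be higher if counted over a shorter transcript.

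The labelled cell type was checked against marker genes. All 7 naive ESC markers (*Nanog*, *Esrrb*, *Zfp42*, *Klf4*, *Tfcp2l1*, *Sox2* and *Tdh*) had counts in every library. The 6 tuft cell markers summed to 2.30 to 3.60 CPM in CreER and 1.72 to 2.57 CPM in O4AID, with *Chat* at 0 counts in the O4AID 0 h library. Their sum in O4AID was 2.1 CPM at 0 h and 2.07 CPM at 24 h. The 5 B cell markers summed to 2.60 to 4.43 CPM over all 15 libraries, and the 5 keratinocyte markers to 1.45 to 3.33 CPM. Other lists were not near the floor. The 5 neural markers summed to 156 to 157 CPM at 0 h and 206 to 224 CPM at 36 h in CreER, and to 19.5 to 44.1 CPM in O4AID. The 5 primitive endoderm markers went from 13.0 to 14.7 CPM at 0 h to 35.4 to 36.4 CPM at 36 h in CreER. In O4AID they went from 10.6 CPM at 0 h to 45.1 CPM at 24 h.

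The second comparison followed CreER after 4OHT. *Pou5f1* was the 1 member called at 12 h and again at 18 h. *Pou2f1* joined it at 24 h, which made 2, and *Pou3f1* and *Pou6f1* at 36 h, which made 4, and every one of these calls was a fall. None of the 6 members was called as rising at any time. Over all genes tested, the share called either way was 0.395%, 8.52%, 21.6% and 36.6% at the same times. Those called higher were 49, 897, 2084 and 3686 of the 18969 genes. A count over 6 genes, with the deleted target among them, is too small to be set apart from these numbers. The median log2 fold change of the 6 members was -0.01, -0.14, -0.27 and -0.40 at the 4 times, whereas that of all genes tested lay between -0.0003 and 0.013. In a test over the 4 times together, 3 members were called (*Pou5f1*, *Pou2f1* and *Pou3f1*), beside 34.4% of all genes.

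*Pou5f1*, the deleted gene, had 8226 and 9594 counts at 0 h and 2870 and 2621 at 36 h. Its level fell with no overlap between any times, from 142 ± 1.40 CPM per kb to 99.8 ± 2.55, 72.7 ± 0.483, 59.2 ± 0.671 and 52.2 ± 3.29. At 36 h 36.8% of the 0 h level was still counted. This count covers all annotated exons, and the part of the gene that Cre removes is not stated in the labels. Reads of the null allele are not separated either, so the value does not measure intact *Oct4* mRNA. By qRT-PCR the paper found that full loss of *Oct4* RNA in this system took over a day. The log2 fold change grew from -0.51 at 12 h to -1.43 at 36 h (SE 0.045, adjusted p = 4.15e-19), and the last step from 24 to 36 h was -0.18 (adjusted p = 0.00888). That last step was not called without replicate 1 of 24 h, replicate 2 of 24 h or replicate 1 of 36 h (adjusted p = 0.057, 0.0748 and 0.178).

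*Pou2f1*, which encodes the broadly expressed OCT1, was the one member other than *Pou5f1* that was called lower by 24 h. In order of time its 5 pairs of libraries held 108 and 103 CPM, 102 and 109 CPM, 95.7 and 95.2 CPM, 79.5 and 84.2 CPM, and 78.9 and 78.8 CPM. The 12 h libraries spanned those of 0 h, and both libraries of 18, 24 and 36 h lay under the 4 of 0 and 12 h. The log2 fold changes at 12 and 18 h, 0.00 and -0.14, were not called (adjusted p = 0.997 and 0.0717). That of 24 h was -0.36 with a SE of 0.047 (adjusted p = 2.36e-06), and that of 36 h was -0.41 with a SE of 0.048 (adjusted p = 1.37e-07). Between 24 and 36 h the difference was -0.05 (adjusted p = 0.585). The 2 later calls held in all 11 other fits made at each time, with log2 fold changes of -0.40 to -0.32 at 24 h and -0.49 to -0.37 at 36 h.

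*Pou3f1*, which encodes the epiblast and Schwann cell factor OCT6, fell late. From its 612 and 658 counts at 0 h it went to 639 and 585, 628 and 681, 646 and 580, and then 372 and 324 in the pairs of the 4 later times. Only the 36 h libraries, at 14.5 and 15.2 CPM, stood under the 20.3 to 23.9 CPM of the other 8. The log2 fold change was -0.06, 0.05 and -0.11 up to 24 h (adjusted p = 0.872, 0.786 and 0.341), and -0.61 at 36 h (SE 0.084, adjusted p = 1.63e-06). The step from 24 to 36 h was -0.50 (adjusted p = 0.00013), and both 36 h calls held in all 11 other fits. The 7 trophectoderm markers (*Cdx2*, *Hand1*, *Krt7*, *Gata3*, *Elf5*, *Eomes* and *Tfap2c*) were all called higher at 36 h, with a median log2 fold change of 1.69. Of all genes tested, 36.6% were called either way at that time. In O4AID the trophectoderm markers summed to 104 CPM at 0 h, 136 CPM at 6 h and 106 CPM at 24 h. At 24 h 1 of the 7 was past 2-fold higher and 0 were past 2-fold lower, beside 4.2% of all genes either way.

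The 6 formative and primed epiblast markers were *Fgf5*, *Otx2*, *Dnmt3b*, *Sox4*, *Sall2* and *Lef1*. They summed to 688 to 693 CPM at 0 h, 553 to 556 at 24 h and 500.2 to 504 at 36 h in CreER. At 36 h 5 of the 6 were called lower, beside 36.6% of all genes called either way. *Sox4* was not (log2 fold change 0.10, adjusted p = 0.483), and *Fgf5* was called higher at 24 h (0.41, adjusted p = 0.0113). In O4AID, where *Pou3f1* went from 30 to 7 counts, the epiblast markers summed to 118, 107, 111, 127 and 139 CPM in order of time. *Fgf5* was at 0 counts in 4 of the 5 libraries. The 5 Schwann cell markers summed to 6.21 and 6.90 CPM at 0 h and to 18.0 and 18.2 CPM at 36 h in CreER. Of their 3 tested markers 1 was called higher at 36 h, beside the same share of all genes. The part of these marker changes, trophectoderm included, in that of *Pou3f1* was not tested.

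*Pou6f1*, which encodes BRN5, had 134 and 178 counts at 0 h and 115 and 82 at 36 h. The pairs of libraries in order of time held 5.23 and 5.88 CPM, 6.0 and 5.75 CPM, 4.68 and 5.29 CPM, 4.68 and 5.14 CPM, and 4.5 and 3.84 CPM. The 18 h libraries overlapped those of 0 h, and the 36 h libraries lay under every earlier one. The log2 fold change of -0.40 at 36 h was called (SE 0.139, adjusted p = 0.0248), whereas those of 0.08, -0.15 and -0.18 at 12, 18 and 24 h were not (adjusted p = 0.907, 0.536 and 0.353). The 36 h call did not hold under DESeq2 (adjusted p = 0.102), in a fit of the 4 libraries compared (0.0519), without replicate 2 of 0 h (0.179) or without replicate 2 of 36 h (0.18).

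*Pou2f2*, the B cell factor OCT2, had the highest log2 fold changes of the 6 members, but none was called. It started from 26 and 38 counts, and the later pairs had 55 and 41, 35 and 46, 53 and 35, and 47 and 34. All 8 treated libraries, at 1.31 to 1.84 CPM, stood above the 1.02 and 1.26 CPM of 0 h. The log2 fold change was 0.57, 0.34, 0.40 and 0.60 at the 4 times, with SE 0.243 and adjusted p = 0.0536 at 36 h and adjusted p of 0.452, 0.441 and 0.253 before it. With genes limited to those with at least 10 counts in every library, the 36 h value was called (adjusted p = 0.0475). At 26 to 55 counts a difference of this size stood at the edge of what the test could call.

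*Pou2f3*, the tuft cell factor, was at 12 to 29 counts in every CreER library. Its pairs in order of time held 0.976 and 0.693 CPM, 0.921 and 0.684 CPM, 0.529 and 0.407 CPM, 0.44 and 0.488 CPM, and 0.743 and 0.843 CPM. The 18 and 24 h libraries lay under those of 0 h, and the 36 h libraries lay within the range of the 0 h pair. The log2 fold changes of 18 and 24 h, both -0.82, were not called (adjusted p = 0.162 and 0.0937), nor were -0.02 at 12 h and -0.05 at 36 h (adjusted p = 0.997 and 0.919).

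The late step, 36 h against 24 h, called 2 members, *Pou5f1* and *Pou3f1*, both lower, beside 14.7% of all genes. Scaling by total counts instead of TMM moved the median of all genes from 0.0041 to -0.1034 in this step and added *Pou2f1* to its calls (log2 fold change -0.155, adjusted p = 0.0317).

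**Figure D2:**
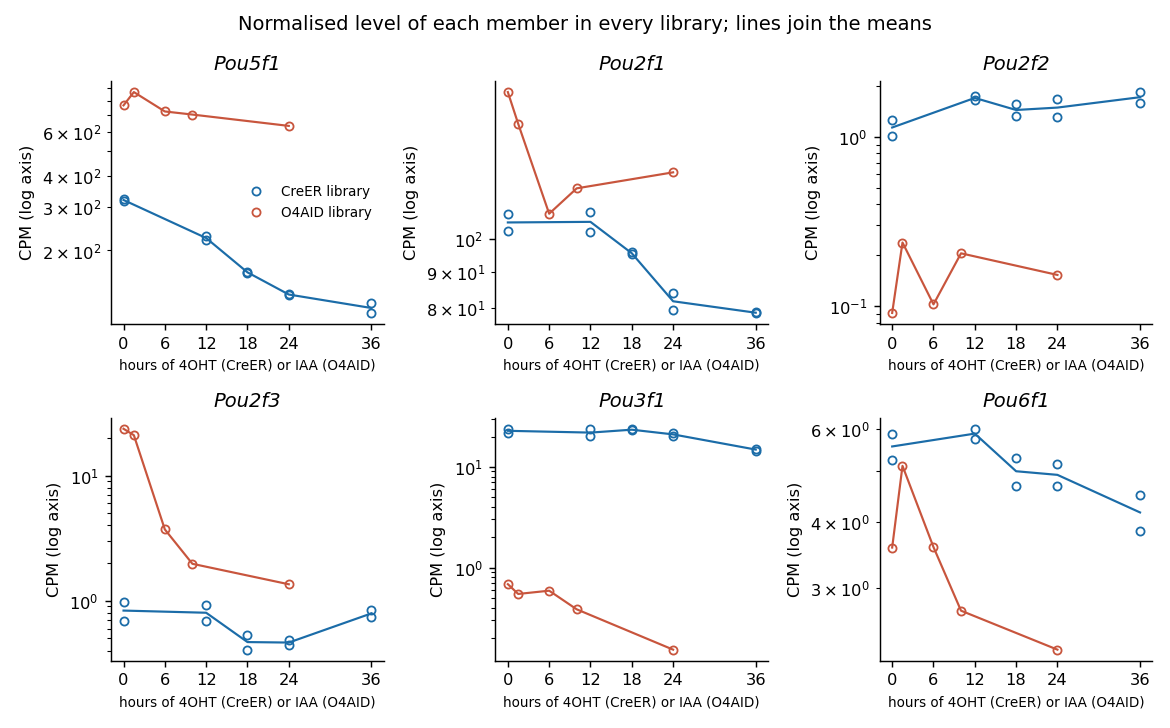
CPM of each member on a log axis against hours of treatment, with 1 open point for each library and lines joining the means of the 2 CreER libraries or the single O4AID libraries. *Pou5f1* fell through the CreER course, *Pou3f1* stood apart at 36 h alone, and *Pou2f3* dropped from 23.6 to 1.35 CPM in O4AID.

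The third comparison followed O4AID after IAA, where the OCT4 fusion protein is degraded and its mRNA is not the target. *Pou5f1* had 33610 counts at 0 h and 36449, 28266, 27440 and 28995 at 1.5, 6, 10 and 24 h. These were log2 changes of 0.19, -0.07, -0.10 and -0.25, the last with a 95% interval of -0.28 to -0.23. The lowest level, at 24 h, was 83.8% of that at 0 h, scaled within the line.

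Among the members, 0 were past 2-fold at 1.5 h and 1 (*Pou2f3*, lower) at each of 6, 10 and 24 h. The share of all genes with a count past 2-fold was 0.0544%, 0.591%, 1.32% and 4.2% at the 4 times. The median log2 change of the 6 members was 0.03, -0.07, -0.27 and -0.40, and that of all genes lay between -0.0025 and 0.0043. The member median includes *Pou5f1*.

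*Pou2f3* had 1037, 884, 145, 77 and 62 counts in the 5 libraries in order of time. The last 3 were 15.9%, 8.49% and 5.81% of the 0 h level, scaled within the line. The log2 change at 1.5 h was -0.15 with an interval of -0.28 to -0.03, so most of the fall lay between 1.5 and 6 h. After it the level of 1.35 CPM was near the 0.407 to 0.976 CPM of the CreER libraries but above all 10 of them. *Pou2f3* lies between *Tmem136*, 7369 bases away, and *Oaf*, 10909 bases away. *Tmem136* had 514, 402, 479, 447 and 473 counts in order of time, and *Oaf* had 138, 133, 190, 244 and 658, so neither neighbour changed from 6 h on as *Pou2f3* did. The 7 naive ESC markers summed to 4987, 4412, 2571, 2378 and 1285 CPM in the same 5 libraries. In CreER, where *Pou2f3* was rare throughout, they summed to 1821 to 1941 CPM. Their part in the fall of *Pou2f3* was not tested.

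*Pou2f1* was lower at all 4 times, with 7035 counts at 0 h and 6095, 4234, 4589 and 5672 after it. The log2 change was -0.14 at 1.5 h with a 95% interval of -0.19 to -0.09, and -0.55 at 6 h with one of -0.60 to -0.49. It was -0.42 (-0.47 to -0.37) and -0.35 (-0.40 to -0.30) at the last 2 times. Its lowest level, 68.3% of 0 h, was therefore at 6 h and not at the end. The intervals of 6 h and 24 h did not overlap, though a second library at each time would be needed to know the spread between libraries.

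*Pou3f1* was rare in O4AID, with 30, 23, 23, 15 and 7 counts at 0, 1.5, 6, 10 and 24 h. The 24 h level was 22.7% of 0 h. On CPM plus 1 the change was -0.52 with an interval of -0.76 to -0.26, and the intervals of the 3 earlier times included 0. With 0.1 in place of 1 added to the CPM, *Pou3f1* joined *Pou2f3* past 2-fold at 24 h.

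*Pou6f1* was higher than at 0 h first and lower later, with 157, 215, 140, 106 and 105 counts in order of time. The log2 change was 0.42 at 1.5 h, with a 95% interval of 0.18 to 0.65, and 0.01 at 6 h. It was -0.28 (-0.54 to -0.01) and -0.45 (-0.71 to -0.19) at the last 2 times. *Pou2f2* had 4, 10, 4, 8 and 7 counts, and all 4 of its intervals included 0.

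**Figure D3:**
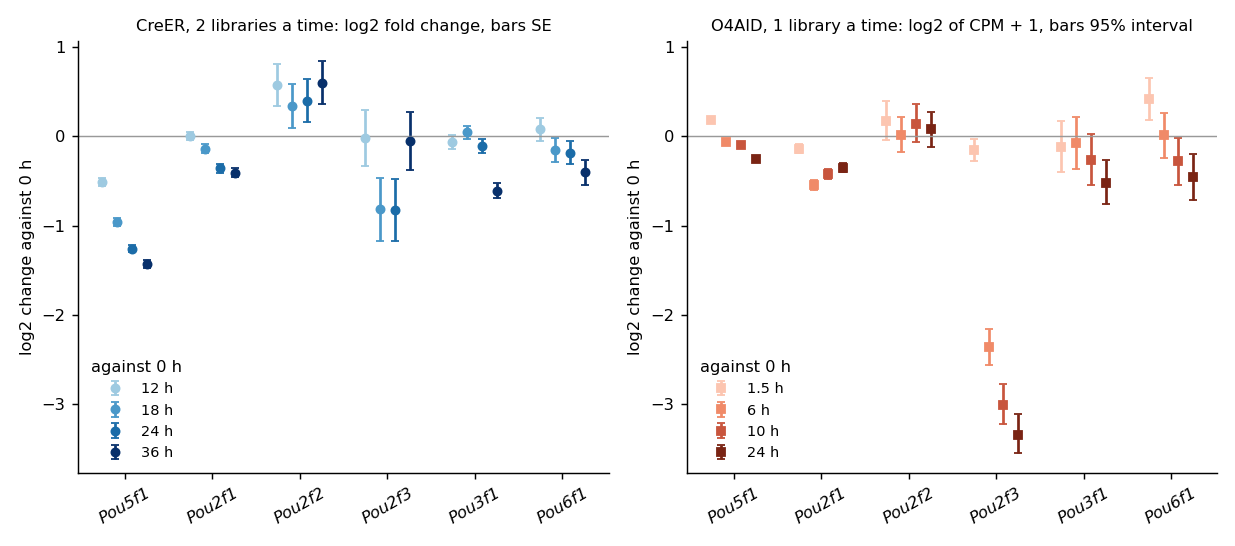
Log2 change of the 6 members against 0 h, at left edgeR log2 fold changes in CreER with SE from 2 libraries a time, at right log2 changes of CPM plus 1 in O4AID with 95% counting intervals from 1 library a time. *Pou5f1* reaches -1.43 in CreER and -0.25 in O4AID, and *Pou2f3* reaches -3.34 in O4AID.

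At 24 h, the one treated time that both lines have, the changes could be set side by side on the CPM plus 1 scale. CreER is given as each 24 h replicate against the 0 h replicate of the same number. The numbers do not pair the libraries, so this matching is arbitrary. The gap between the 2 CreER values is therefore not a spread of paired changes. *Pou2f1* changed by -0.35 in O4AID (95% interval -0.40 to -0.30) and by -0.42 and -0.29 in CreER, a difference of 0.01 between the lines. *Pou2f3* changed by -3.34 in O4AID and by -0.46 and -0.19 in CreER, from a 28.3-fold higher start. *Pou5f1* changed by -0.25 in O4AID and by -1.26 and -1.24 in CreER. *Pou3f1* changed by -0.52 (-0.76 to -0.26) against -0.21 and 0.00, and *Pou6f1* by -0.45 (-0.71 to -0.19) against -0.12 and -0.17. *Pou2f2* changed by 0.08 (-0.12 to 0.27) against 0.42 and 0.03. The difference between lines was past 2-fold for *Pou2f3* alone (-3.01) and just inside the limit for *Pou5f1* (0.996). With the CreER change taken at 36 h, *Pou5f1* was past it as well (1.18). The difference could not be tested with a single O4AID library at each time.

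The paralogues were also added up per kb, as a measure of how much octamer-factor mRNA other than *Pou5f1* was present. In CreER the sum of the other 5 was 14.0 and 13.1 CPM per kb at 0 h, and the later pairs held 12.9 and 14.0, 13.0 and 12.9, 11.1 and 11.8, and 9.68 and 9.75. No later library exceeded the higher of the 0 h pair, and the 24 and 36 h libraries lay under all the earlier ones. Because *Pou5f1* fell further, its share of the 6-member sum went from 91.1% and 91.5% to 83.8% and 84.8%. This CreER share rests on the whole *Pou5f1* count, which is not limited to intact mRNA. In O4AID the sum of the other 5 was 19.1 CPM per kb at 0 h and 17.4, 8.58, 8.33 and 8.35 afterwards, while the *Pou5f1* share went from 94.7% to 97.1%. The O4AID drop was made up of *Pou2f3*, from 8.71 to 0.499, and *Pou2f1*, from 9.66 to 7.46 CPM per kb. All sums and shares here rest on the deposited exon lengths. They would change if *Pou2f1* were counted over a shorter transcript.

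**Figure D4:**
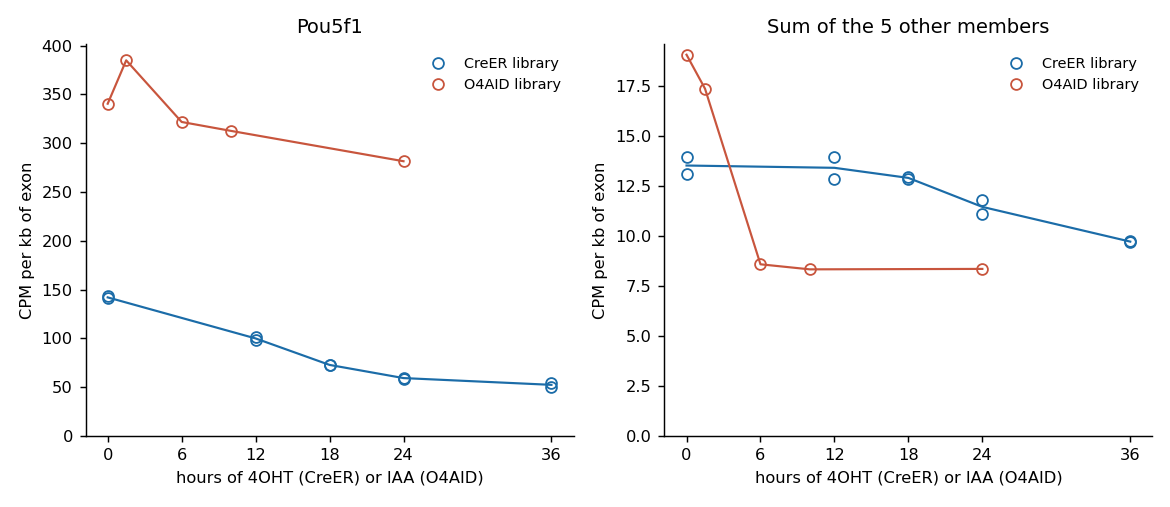
CPM per kb of exon of *Pou5f1* (left) and of the 5 other members added together (right) against hours of treatment, with 1 point for each library, both axes from 0 and on different scales. The sum of the others ended at 9.68 and 9.75 in CreER and at 8.35 in O4AID, under its start in both lines.

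The 8 further POU genes were *Pou1f1*, *Pou3f2*, *Pou3f3*, *Pou3f4*, *Pou4f1*, *Pou4f2*, *Pou4f3* and *Pou5f2*, of which 5 passed the filter in CreER. None was called up to 18 h, 1 was called lower at 24 h and 2 were at 36 h, beside 21.6% and 36.6% of all genes called either way. None was called higher, where 2084 and 3686 of the 18969 genes tested were at 24 and 36 h. *Pou4f2*, a retinal ganglion cell factor, had 175 and 196 counts at 0 h and its log2 fold change reached -0.90 by 24 h (adjusted p = 3.55e-05). By 36 h it was -1.60 with a SE of 0.166 (adjusted p = 1.15e-08). *Pou4f3*, a hair cell factor, had 52 and 54 counts at 0 h and fell at 36 h with -1.04 (SE 0.255, adjusted p = 0.00194). Both were at or under the floor of 3 counts in O4AID at 0 h (1 and 3 counts), at least 97.4-fold and 27.9-fold lower than in CreER. *Pou4f1*, a sensory neuron factor, was 3.49-fold higher in O4AID (487 counts).

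The cofactor list held genes whose products work with octamer factors, from the B cell coactivator *Pou2af1* to *Hcfc1* and the SNAPC subunits of small nuclear RNA transcription. Of 9 genes, 6 passed the filter. None was called up to 18 h. The calls were 1 lower at 24 h and 2 lower at 36 h, beside 21.6% and 36.6% of all genes called either way at those times. The median log2 fold change of the 6 at 36 h was -0.17, and that of all genes was 0.007. The 2 genes called were *Snapc3* (-0.44, adjusted p = 4.77e-07) and *Snapc1* (-0.23, adjusted p = 0.04). *Pou2af1* had 0 or 1 count in every library and *1810046K07Rik*, a coactivator partner gene of *Pou2f3*, likewise, including the O4AID libraries in which *Pou2f3* was abundant. *Colca2* had 0 to 8 counts.

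The 9 genes known for octamer or Oct-Sox elements (*Sox2*, *Nanog*, *Utf1*, *Fgf4*, *Fbxo15*, *Zfp42*, *Lefty1*, *Spp1* and *Nr0b1*) give the read-out against which the factors can be set. Over all genes tested in CreER, 0.395%, 8.52%, 21.6% and 36.6% were called either way at the 4 times. In CreER 1, 3, 6 and 8 of the 9 fell at these times in turn and 1 rose each time, with medians of -0.06, -0.14, -0.27 and -0.55. The largest falls at 36 h were those of *Nr0b1* (-1.25), *Utf1* (-0.98) and *Lefty1* (-0.83). *Lefty1*, a Nodal antagonist, had been called higher at 12, 18 and 24 h (0.35, 0.43 and 0.41), and *Nanog* was the 1 gene that rose at 36 h (0.20, adjusted p = 0.000119). In O4AID the share of all genes past 2-fold either way was 0.0544%, 0.591%, 1.32% and 4.2% at 1.5, 6, 10 and 24 h. At these times 0, 3, 4 and 9 of the 9 were past 2-fold lower, with medians of -0.08, -0.72, -0.82 and -1.77. *Pou2f3* at 6 h (-2.36) stood under all 9, of which the lowest was *Nr0b1* (-1.55).

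The 250 bases before and 50 after each annotated start were searched for the octamer ATGCAAAT or its reverse ATTTGCAT, in RefSeq promoter windows of GRCm38.p6. Windows were matched for 4 members, *Pou5f1*, *Pou2f1*, *Pou2f2* and *Pou6f1*, and 0 of their 7 windows held the octamer, which 1.74% of all 32851 windows held. The 7 letters ATGCAAA or TTTGCAT, which lie within the octamer, were looked for after the octamer result was seen. They stood in 4.63% of all windows, in that of *Pou6f1* and in those of 4 of the 7 Oct-Sox element genes with a window (*Nanog*, *Sox2*, *Spp1* and *Zfp42*). The windows of *Pou5f1*, the gene with the deletion, and of *Pou6f1*, the member with the match, are shown on their own strand from 5′ to 3′. The *Pou5f1* window is chr17:35505782-35506081 on the plus strand. The *Pou6f1* window is chr15:100599935-100600234 on the minus strand, and its capitals mark the 7 letters, which begin 138 bases before the start:
Pou5f1: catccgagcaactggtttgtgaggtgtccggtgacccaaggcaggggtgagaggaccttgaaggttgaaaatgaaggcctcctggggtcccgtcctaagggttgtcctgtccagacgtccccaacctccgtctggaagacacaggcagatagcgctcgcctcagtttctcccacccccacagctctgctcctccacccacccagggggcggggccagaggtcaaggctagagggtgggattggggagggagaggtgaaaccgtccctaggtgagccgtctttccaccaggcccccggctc
Pou6f1: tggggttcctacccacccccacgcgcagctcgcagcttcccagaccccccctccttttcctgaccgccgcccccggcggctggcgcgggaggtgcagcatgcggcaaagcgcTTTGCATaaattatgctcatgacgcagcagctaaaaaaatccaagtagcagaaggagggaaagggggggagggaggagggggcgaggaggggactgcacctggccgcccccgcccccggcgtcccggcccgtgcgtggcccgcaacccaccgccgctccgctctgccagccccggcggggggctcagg

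A match of letters is a description and not a binding site, and the windows leave out distal enhancers.

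Antisense and overlapping genes took few reads. *Cd247*, which shares 3007 exon bases with *Pou2f1* on the other strand, had 1 to 13 counts in every library. *Gm19553*, with 317 bases shared with *Pou5f1*, had 0 to 3, and *Gm2164*, with 330 shared with *Pou3f1*, had 0 or 1. The strand setting of the counting was not stated, so reads of such pairs cannot be told apart from these counts alone.

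The genes whose CPM followed each member most closely over the 15 libraries were found by Pearson's r of log2 values among 15194 genes. *Pou2f3* was followed by *Mok* (r = 0.988), *Eif4e2* and *Arl15*, *Pou3f1* by *Gm7993* (r = 0.998), *Tspan7* and *Plxnb1*, and *Pou2f2* by *Socs4* (r = 0.986), *Adcy8* and *Gm8623*. *Pou5f1* was followed by *Nono* (r = 0.983), *Mrpl22* and *Trps1*, *Pou2f1* by *Itpk1* (r = 0.970), *Acot9* and *Cobl*, and *Pou6f1* by *Tsr2* (r = 0.962), *Polr3f* and *Dbf4*. The libraries share their line, so the gap between lines enters r over all 15. Within the 10 CreER libraries *Pou2f3* and *Arl15* had r = 0.026, against 0.986 within the 5 of O4AID, whereas *Pou2f1* and *Itpk1* had 0.95 and 0.892.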

How the data were processed

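RNA was ribosome-depleted, made into directional libraries and sequenced as paired ends by the authors, who trimmed reads with Trim Galore 0.1.4 (the version per the labels), aligned them to GRCm38/mm10 with TopHat2 2.1.0 and counted them per Ensembl gene with featureCounts 1.5.1. The strand and multimapping settings are not given in the sources used here. The deposited per-library files hold these raw read counts, with gene length and exon positions. The TMM-normalised table of the authors was not used. Each file has 48801 entries, of which 92 spike-in entries held 0 reads and were left out.

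Groups, times and replicate numbers came from the labels. CreER counts were fitted in edgeR 4.0.16 (R 4.3.3) with TMM factors, filterByExpr and robust quasi-likelihood over all 10 CreER libraries, and p-values were adjusted by Benjamini-Hochberg over the 18969 genes tested. Fold changes used a prior count of 0.125. The script was tested on simulated data. O4AID changes were log2 ratios of CPM plus 1 (Python 3.11.15, numpy 2.4.6, pandas 2.3.3) with 95% Wilson intervals of each share (SciPy 1.17.1) carried to the ratio. Reads have no molecular identifiers, so intervals and the floor of 3 counts cover counting error only. Counts of replicates differed by more than sampling noise (chi-square divided by its degrees of freedom 3.22 to 7.34), so replicates were counted as separate libraries. Helix stretches came from a frame search of the GENCODE M21 coding transcripts and promoters from RefSeq.

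Alternatives were RLE and total-count scaling, other filters, DESeq2 1.42.0, a replicate block, each replicate left out, pseudocounts of 0.1 and 5 CPM and other reference libraries. Named genes were the 6 members, 8 further POU genes, list genes called at 36 h with up to 3 per direction, nearest neighbours and the 3 genes of highest likeness. The members, gene lists and tests were chosen with earlier results of these data known. One planned gene is not reported here.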

Additional observations from a re-analysis of the deposited data

How the results depend on the processing

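The 30 CreER fold changes of the members were each recomputed under 11 alternatives. This gave 330 values, of which 306 kept direction and side of the threshold. The values share fits and libraries, so they are not independent. The calls of *Pou5f1* against 0 h at all 4 times, *Pou2f1* at 24 and 36 h and *Pou3f1* at 36 h held in every alternative, whereas 7 calls were lost (4 of *Pou6f1* at 36 h and 3 of *Pou5f1* in the step from 24 to 36 h) and 2 were gained (*Pou2f2* at 36 h and *Pou2f1* in that step). The sign turned in 15, none of them called. For *Pou2f1* at 12 h the value was -0.0038 with RLE scaling and with DESeq2, -0.0381 with total-count scaling, -0.0004 without a filter, -0.0023 with at least 10 counts in every library, and -0.0446 to 0.045 with a replicate left out. With a replicate left out, *Pou2f3* ranged from -0.27 to 0.23 at 12 h and from -0.30 to 0.19 at 36 h, *Pou3f1* from -0.17 to 0.05 at 12 h and from -0.0301 to 0.109 at 18 h, and *Pou6f1* from -0.0009 to 0.165 at 12 h.

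The number of all genes called at 12 h was 222 without a filter, against 75, and 8 to 214 with a replicate left out. At 18 h it was 989 under DESeq2, against 1616, and 578 to 2024 with a replicate left out. At 24 h it was 2585 under DESeq2, against 4089, and 2371 to 3759 with a replicate left out. Leaving out a replicate gave 1 to 2 members called from 24 to 36 h. Total-count scaling called 2696 genes higher and 4802 lower at 36 h, against 3686 and 3262. With the replicate block 89, 1677, 4139 and 6999 genes were called at the 4 times, and the members called were those of the fit without it. Deviations of libraries with the same number correlated by -0.021 to 0.05 between times, so the numbers do not pair the libraries.

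In O4AID at 24 h, 2 members were past 2-fold with 0.1 CPM added. The 24 h difference between lines in *Pou2f3* was -3.29 with 0.1 CPM added, -2.01 with 5 CPM added and -3.31 when the CreER change was taken at 36 h, against -3.01. For *Pou5f1* it was 0.996, and it passed 2-fold with 0.1 CPM added (1.001), with total-count scaling (1.09), with the 36 h CreER change (1.18) and without CreER 0 h replicate 2 (1.005). *Pou2f2* and CreER *Pou2f3*, at 12 to 55 counts, and O4AID *Pou2f2* and *Pou3f1*, at 4 to 30, are limited by counting error, so changes of modest size in them were not detectable at this depth.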
